A study of Danio rerio with 9 samples.

Results

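Crystallins are the proteins that fill the fibre cells of the eye lens, and they were followed here in RNA of whole zebrafish larvae. The genes were chosen by symbol, as those named for alpha, beta or gamma crystallins and not for cryptochromes, through the RefSeq accession of each array probe. They came to 52 genes, measured by 86 probes, of 12900 named genes on the array. The symbol rule uses no measured value, but these members were chosen with earlier results of these data known.

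Lens fibre cells lose their nuclei and organelles as they mature, and the crystallins packed at high concentration give the lens its transparency and refractive power. Alpha crystallins belong to the small heat shock proteins and act as chaperones that keep damaged proteins in solution. Beta and gamma crystallins are structural proteins built on a shared fold. Fish lenses are rich in gamma M crystallins, methionine-rich proteins encoded by a large family of related genes that mammals lack. Some small heat shock genes, alpha B crystallin of mammals among them, are also expressed outside the lens and are induced by stress.

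All larvae were collected at 5 days post fertilization, and each group held 3 arrays from 3 independent experiments per the labels. Tacrine-neomycin larvae were kept in 50 µM tacrine, an inhibitor of acetylcholinesterase, for 1 h and then in 200 µM neomycin for 1 h. Neomycin larvae had 1 h in 1% DMSO and then 1 h in 200 µM neomycin, an aminoglycoside that kills the hair cells of the lateral line. Control larvae had 1 h in 1% DMSO and then 1 h in vehicle, with neither compound. The labels give no DMSO level for the larvae given tacrine and describe no group with tacrine alone, so effects of tacrine by itself cannot be estimated. In RNA of whole larvae, fewer lens cells and less RNA per lens cell cannot be told apart.

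RNA was labelled with a single dye and hybridised to Agilent arrays. A level is the log2 processed signal of a probe minus the 75th percentile of its array, so that 0 stands for that percentile; a difference of 1 is a 2-fold change. The 75th percentile of the raw signal lay between 151 and 226 on tacrine-neomycin arrays, 142 and 170 on neomycin arrays and 105 and 137 on control arrays. Of 43603 probes, 65.6% to 73.8% were well above background on an array. The 31671 probes that passed on at least 3 of 9 arrays were tested with limma, with p values adjusted over these probes by Benjamini-Hochberg, and a difference counts as called when the adjusted p is under 0.05. A gene is represented by its brightest tested probe, which gave 11326 named genes. Arrays with the same replicate number shared a slide. Each group lay at its own place on every slide, and an effect of that place cannot be told apart from one of the group. Precision is limited by 3 arrays per group.

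Of the 52 crystallin genes, 48 had a tested probe, and 45 of these were well above background on all 9 arrays. The 48 comprised 2 alpha, 7 beta A, 4 beta B and 30 gamma M genes, 2 gamma N and 2 gamma S genes, and crybgx, a beta-gamma crystallin gene. The 4 genes without a tested probe were cryaba, crygm6, crygs1 and crygs2, which were well above background on 0 of 9 arrays. Lens genes other than crystallins were measured too: 42 of the 45 on the array that were listed for lens fibres or lens epithelium had a tested probe. The list was not limited to genes specific to the lens. Among the 48, crybb2 and crygm2d21 were well above background on 3 arrays each and cryabb on 8.

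Most gamma M genes lie side by side in the genome. In the gene order of the RefSeq annotation, 24 crystallin genes follow each other without another gene between them, 23 of them named crygm2, and 21 of the 24 are on the array. The 22 tested crygm2 genes have closely related sequences, so a probe may bind the RNA of several of them, and their values cannot be assigned to 1 copy with certainty. Across the 9 arrays, after each group's mean was removed, the 231 pairs of crygm2 genes had a median correlation of 0.83. Over all 1128 pairs of crystallin genes it was 0.61, and over the 325 pairs without crygm2 genes it was 0.38. These correlations share the arrays and their scaling, and they describe how far the genes are separate measurements.

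Tacrine-neomycin larvae against control larvae asks what both compounds together left changed. Crystallin RNA was mostly lower in tacrine-neomycin larvae: 45 of 48 genes had a difference below 0, with a median of -0.43 that turned to 0.47 when normexp background correction came before the same scaling. Over all named genes the median was -0.046, and 55.6% lay below 0. No crystallin gene was called (0 of 48), where 5.66% of all named genes were. By limma's unadjusted p under 0.05, 20 crystallin genes passed, all of them lower, where 22% of named genes passed in either direction and 11.6% as lower. The smallest adjusted p in limma was 0.0504, for crygm2d14, just above the threshold. The size of the crystallin median also depended on the scaling. It was -0.14 under quantile normalization, which gives every array the same distribution, and -0.11 when normexp came before quantile normalization. In the authors' deposited matrix, with 45 of the genes, it was -0.12.

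In 24 of the 48 genes every tacrine-neomycin array lay below every control array, and in 2 genes every one lay above. Among all named genes these shares were 16.2% and 13.7%. Of 30 skeletal muscle genes on the same arrays, 15 were lower in this way and 0 higher. Within slides the crystallin medians were -0.83, -0.29 and -0.15 on slides 1, 2 and 3, and 35 of 48 genes were lower on all 3 slides, where 28.6% of named genes were. Since the crystallin genes vary together from array to array, such counts do not add up like counts of independent genes.

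The comparison of tacrine-neomycin with neomycin larvae asks what tacrine pretreatment added to neomycin. Here 44 of 48 crystallin genes had a difference below 0, with a median of -0.16, against -0.028 over all named genes, of which 53.7% lay below 0. None was called (0 of 48) where 2.76% of named genes were, and 4 had an unadjusted p under 0.05 in limma, 3 lower and 1 higher, where 17.4% of named genes did. The smallest adjusted p in limma was 0.111, for crybb2. The slide medians were -0.37, -0.11 and -0.08. The groups did not overlap in 11 genes that were lower and 2 that were higher, where 14.5% and 12.3% of named genes behaved so, and 23 genes were lower on all 3 slides, where 26.5% of named genes were.

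Neomycin larvae against control larvae asks what neomycin alone changed. The crystallin median was -0.23, with 37 of 48 genes below 0, against -0.0085 over all named genes, of which 51.8% lay below 0, and it turned to 0.59 with normexp background correction before the same scaling. No crystallin gene was called (0 of 48) where 0.159% of named genes were, and 2 had an unadjusted p under 0.05 in limma, where 8.18% did. The smallest adjusted p in limma was 0.448, for crygm2d14. The slide medians were -0.37, -0.20 and -0.09. In 4 genes every neomycin array lay below every control array and in 0 genes above, where 6.88% and 6.64% of named genes did, and 22 were lower on all 3 slides, where 18.1% of named genes were. Under quantile normalization the crystallin median was -0.056, with normexp before quantile normalization -0.048, and in the authors' deposited matrix (45 genes) -0.057. The 3 comparisons share their arrays in pairs, so their values are given side by side and are not independent of each other.

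**Figure D1:**
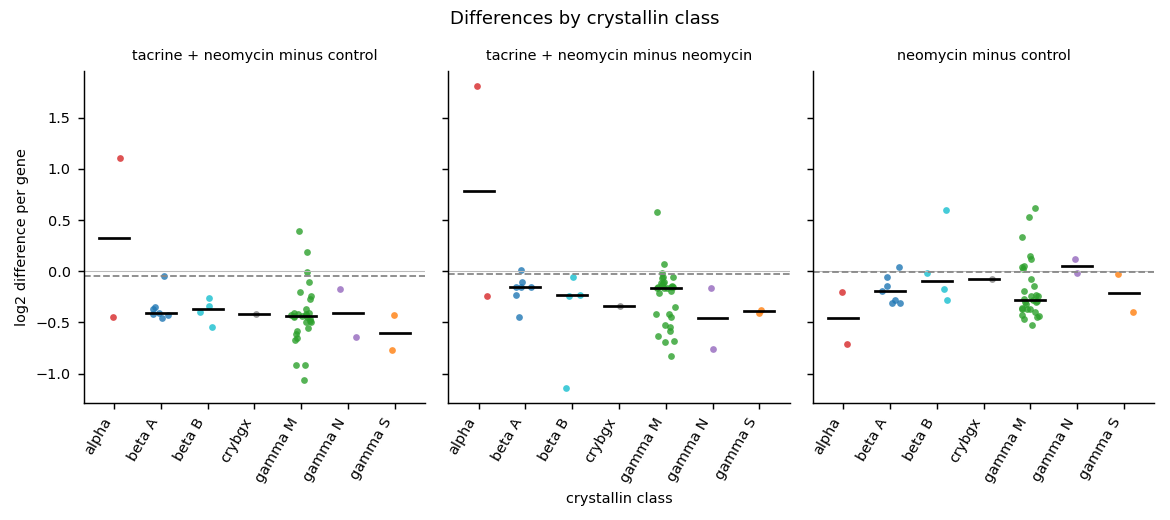
Log2 difference of each of the 48 tested crystallin genes (points) by class in 3 comparisons, with class medians as black bars and the median of all named genes as a dashed line. Most points lie below 0 in the comparison of tacrine-neomycin with control larvae, where the crystallin median was -0.43 (0.47 after normexp with the same scaling), while cryabb, the upper alpha point, had 1.11.

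Control array 1 stood apart from the other arrays in crystallin RNA. Set against each gene's own mean over the 9 arrays, the crystallin median was -0.26, -0.30 and -0.05 on tacrine-neomycin arrays 1 to 3. It was 0.16, -0.14 and 0.02 on the neomycin arrays and 0.57, 0.02 and 0.08 on the control arrays. Of the 48 crystallin genes, 39 had their highest level on control array 1.

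Without control array 1 the median difference of tacrine-neomycin from control larvae was -0.28 and that of neomycin from control larvae was -0.09. The number of genes with an unadjusted p under 0.05 in limma was then 8 for tacrine-neomycin against control larvae and 3 for neomycin against control larvae. With all arrays these numbers were 20 and 2, where 22% and 8.18% of named genes passed. In tacrine-neomycin against control larvae the number was also lower, at 7 each, without tacrine-neomycin array 1 or 2, with medians of -0.39 and -0.38. It was 25 without control array 2, 19 without control array 3 and 21 without tacrine-neomycin array 3. A lower number was therefore not particular to control array 1. Shares of named genes with an unadjusted p under 0.05 are not given for the fits without an array. The comparison of tacrine-neomycin with neomycin larvae holds no control array and kept its median of -0.16. That median was -0.10 without neomycin array 1, -0.30 without neomycin array 2 and -0.26 without tacrine-neomycin array 3. Neomycin array 2 also weighed on neomycin against control larvae, whose median was -0.13 without it.

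**Figure D2:**
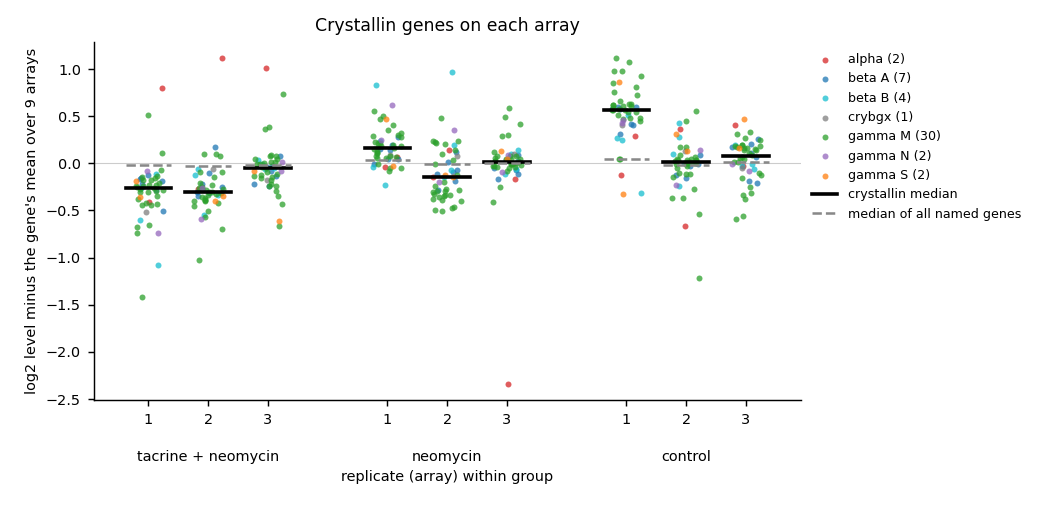
Level of each of the 48 tested crystallin genes on each array minus that gene's mean over the 9 arrays (log2), by class, with the crystallin median as a black bar and the median of all named genes dashed. The crystallin median was highest on control array 1, at 0.57, and lowest on tacrine-neomycin array 2, at -0.30, while the dashed medians stayed between -0.03 and 0.04.

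Gamma M genes made up most of the family and set its median. Of 30 tested, 28 were below 0 in tacrine-neomycin against control larvae, with a median of -0.43 that was 0.47 after normexp with the same scaling. In 18 of the 30 every tacrine-neomycin array lay below every control array and in 1 above, where 16.2% and 13.7% of all named genes did. Gamma M genes vary together from array to array, so these are not counts of independent genes. The median was -0.16 in tacrine-neomycin against neomycin larvae and -0.28 in neomycin against control larvae.

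The gamma M gene with the brightest probe was crygm2d3, a structural lens protein of the crygm2 group. Its level was 8.05, 8.02 and 8.22 in tacrine-neomycin larvae, 8.38, 7.94 and 8.31 in neomycin larvae, and 9.25, 8.30 and 8.48 in control larvae. Control array 1 was far above the other arrays, and the tacrine-neomycin arrays lay below the control arrays by a small margin. The difference of tacrine-neomycin from control larvae was -0.58 (SE 0.24, adjusted p = 0.199 in limma), that from neomycin larvae was -0.11, and that of neomycin from control larvae was -0.47.

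The gene nearest to the threshold, crygm2d14, had levels of 7.66, 7.78 and 7.96 in tacrine-neomycin larvae, 8.20, 7.79 and 8.06 in neomycin larvae, and 8.56, 8.54 and 8.25 in control larvae. Here control array 1 did not stand alone, since control array 2 was as high, and both treated groups lay wholly below the controls. The difference was -0.65 for tacrine-neomycin against control larvae (SE 0.16, a 1.57-fold lower level, adjusted p = 0.0504) and -0.43 for neomycin against control larvae (SE 0.16, adjusted p = 0.448). It was -0.22 for tacrine-neomycin against neomycin larvae (SE 0.16, adjusted p = 0.547).

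The level of crygm2f was 2.22, 2.17 and 2.63 in tacrine-neomycin larvae, 3.05, 3.01 and 2.99 in neomycin larvae, and 3.85, 3.04 and 2.88 in control larvae. All 3 tacrine-neomycin arrays were below all other arrays, and the neomycin arrays were within the range of the controls. The difference from neomycin larvae was -0.68 (SE 0.25, a 1.60-fold lower level, adjusted p = 0.197). From control larvae it was -0.92 (SE 0.25, a 1.89-fold lower level, adjusted p = 0.063), and neomycin differed from control larvae by -0.24. After normexp with the same scaling the difference from control larvae was -0.021 (adjusted p = 0.977).

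Which gamma M genes pass depends on the variance model and the filter. With the slide as a block, crygm2d6 (adjusted p = 0.022 in limma) and crygm2c (0.0469) were called lower in tacrine-neomycin than in control larvae. They were 2 of 48 crystallin genes (4.17%), where 6.9% of all named genes were called in either direction in that fit. These 2 were singled out after their values were seen. The level of crygm2d6 was -0.01, -0.36 and -0.45 in tacrine-neomycin larvae, 0.53, 0.09 and 0.20 in neomycin larvae, and 1.19, 0.21 and 0.53 in control larvae. Its arrays with both compounds lay below all others, with a difference of -0.91 from control larvae (SE 0.25), and of -1.2, -0.56 and -0.97 within slides 1, 2 and 3. For crygm2c the difference from control larvae was -0.67.

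Not all gamma M genes had the same order of groups. Outside the crygm2 group, crygm1 averaged 0.19 ± 0.94 in tacrine-neomycin larvae, 1.02 ± 0.07 in neomycin larvae and 0.40 ± 0.53 in control larvae (SD, n = 3 each). Tacrine-neomycin array 3 was at 1.27, against -0.21 and -0.49 on the other two, so this group's spread covered both other groups. crygm4 differed by 0.19 and crygm2d21 by 0.39 between tacrine-neomycin and control larvae, the 2 gamma M differences above 0. The crygm2d21 probe exceeded background clearly on 2 tacrine-neomycin arrays, 0 neomycin arrays and 1 control array. Both means behind its 0.39 therefore include arrays on which it was not well above background. For the neomycin larvae only a bound exists, and the tacrine-neomycin mean was 1.04-fold above it, which is not a minimum for the same reason.

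The 7 beta A crystallins, acidic members of the beta family that form oligomers in the lens, were all below 0 in tacrine-neomycin against control larvae, with a median of -0.41 that was 0.56 after normexp with the same scaling. Their differences lay between -0.45 and -0.04. In tacrine-neomycin against neomycin larvae the median was -0.15, and in neomycin against control larvae it was -0.20.

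In this class cryba4, with the brightest probe, had levels of 7.28, 7.16 and 7.43 in tacrine-neomycin larvae, 7.51, 7.18 and 7.50 in neomycin larvae, and 8.07, 7.47 and 7.58 in control larvae. Tacrine-neomycin arrays lay below the control arrays by a narrow margin, neomycin arrays overlapped both groups, and control array 1 was the highest. The difference from control larvae was -0.42 in tacrine-neomycin larvae (SE 0.19, adjusted p = 0.230) and -0.31 in neomycin larvae (SE 0.19, adjusted p = 0.711). On the other tested cryba4 probe these differences were -0.077 and -0.0081.

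For cryba1l1, the beta A gene with the smallest p against control larvae, the level was 6.20, 6.27 and 6.40 in tacrine-neomycin larvae, 6.53, 6.37 and 6.43 in neomycin larvae, and 6.90, 6.57 and 6.69 in control larvae. On this probe control larvae were above both treated groups on every array. The difference from control larvae was -0.43 in tacrine-neomycin larvae (SE 0.14, a 1.35-fold lower level, adjusted p = 0.104) and -0.28 in neomycin larvae (SE 0.14, adjusted p = 0.623). On the second, dimmer cryba1l1 probe the groups overlapped. Its differences from control larvae were -0.20 in tacrine-neomycin larvae (adjusted p = 0.522 in limma) and -0.015 in neomycin larvae (adjusted p = 0.995).

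A different order was seen for cryba2b, with 5.86, 6.27 and 6.13 in tacrine-neomycin larvae, 6.64, 6.48 and 6.45 in neomycin larvae, and 6.95, 6.36 and 6.16 in control larvae. Tacrine-neomycin arrays lay below all neomycin arrays but overlapped the controls, which spread widely. The difference from neomycin larvae was -0.44 (SE 0.21, adjusted p = 0.322), and neomycin differed from control larvae by 0.04.

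Among the 4 beta B crystallins, the basic members of the family, all were below 0 in both comparisons of tacrine-neomycin larvae, with medians of -0.37 against control larvae and -0.24 against neomycin larvae. The level of crybb1 was 6.60, 6.75 and 6.86 in tacrine-neomycin larvae, 6.84, 6.80 and 6.75 in neomycin larvae, and 7.12, 7.29 and 6.81 in control larvae. The 3 groups overlapped in part, and the difference of tacrine-neomycin from control larvae was -0.34 (SE 0.15, adjusted p = 0.237), which was 0.61 after normexp with the same scaling. The 4 tested crybb1 probes did not share a sign. They ranged from -0.34 to 0.12 in that comparison and from -0.096 to 0.17 against neomycin larvae, with 1 probe above 0 in each.

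The probe of crybb2 was near background: it was well above it on 1 tacrine-neomycin array, 2 neomycin arrays and 0 control arrays. Its level was -5.85, -5.32 and -4.83 in tacrine-neomycin larvae, -3.94, -3.80 and -4.83 in neomycin larvae, and -5.08, -4.49 and -4.80 in control larvae. Neomycin arrays 1 and 2 stood above the other 7 arrays. The difference of tacrine-neomycin from neomycin larvae was -1.14 (SE 0.33, adjusted p = 0.111). The difference of neomycin from control larvae was 0.60 (adjusted p = 0.678 in limma) and -0.73 after normexp with the same scaling. For the control larvae only a bound exists, at -4.67, and the neomycin mean was 1.39-fold above it. Control array 2, at -4.49, lay above that bound, so 1.39-fold is not a minimum. The neomycin mean also includes an array on which the probe was not well above background.

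The level of crybgx was 5.88, 6.34 and 6.22 in tacrine-neomycin larvae, 6.48, 6.48 and 6.50 in neomycin larvae, and 6.81, 6.53 and 6.35 in control larvae. All tacrine-neomycin arrays were below all arrays of the other two groups. The difference was -0.41 from control larvae (SE 0.17, adjusted p = 0.187) and -0.34 from neomycin larvae (SE 0.17, adjusted p = 0.342), while neomycin differed from control larvae by -0.07. After normexp with the same scaling the difference from control larvae was 0.60.

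Gamma N crystallins, a lineage held to be close to the branching of the beta and gamma families, were represented by crygn1 and crygn2. The level of crygn1 was 0.12, 0.26 and 0.77 in tacrine-neomycin larvae, 1.47, 1.2 and 0.76 in neomycin larvae, and 1.31, 0.99 and 0.77 in control larvae. On slides 1 and 2 the tacrine-neomycin array was lowest, whereas on slide 3 the 3 arrays were level. The difference from neomycin larvae was -0.76 (SE 0.24, a 1.70-fold lower level, adjusted p = 0.147), and that from control larvae was -0.64 (SE 0.24, adjusted p = 0.159).

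For crygn2 the level was 6.71, 6.52 and 6.80 in tacrine-neomycin larvae, 7.04, 6.59 and 6.88 in neomycin larvae, and 7.21, 6.56 and 6.78 in control larvae. The 3 groups overlapped throughout. The difference of tacrine-neomycin from control larvae was -0.18 (SE 0.20, adjusted p = 0.658), which was 0.77 after normexp with the same scaling.

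Gamma S crystallins are the gamma type that mammals make in the outer lens fibres. The level of crygs3 was -1.42, -1.58 and -1.84 in tacrine-neomycin larvae, -1.26, -1.36 and -1.10 in neomycin larvae, and -0.36, -1.10 and -1.07 in control larvae. The tacrine-neomycin arrays were below all other arrays, and control array 1 was again the highest. The difference from control larvae was -0.77 (SE 0.22, a 1.70-fold lower level, adjusted p = 0.0724) and that from neomycin larvae -0.37 (SE 0.22, adjusted p = 0.421). The other tested gene, crygs4, differed by -0.43 from control larvae (adjusted p = 0.325). The gamma S median in tacrine-neomycin against control larvae stayed below 0 after normexp with the same scaling, at -0.83 against -0.60 as reported.

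**Figure D3:**
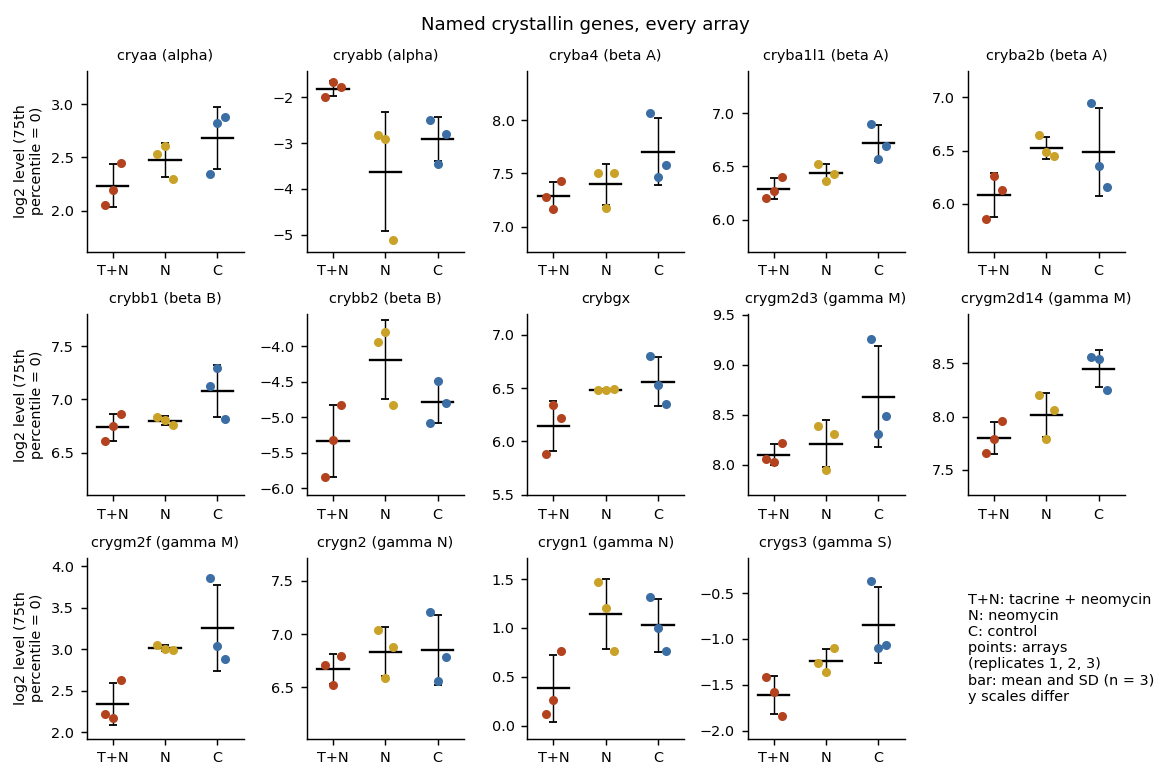
Log2 level of 14 named crystallin genes on every array (points, replicates 1 to 3 from left to right within a group; 0 is the array's 75th percentile), with group mean and SD (n = 3), for tacrine-neomycin (T+N), neomycin (N) and control (C) larvae. The 3 tacrine-neomycin arrays of crygm2f lie at 2.17 to 2.63, below its control arrays at 2.88 to 3.85, and those of cryabb at -1.99 to -1.67, above its control arrays at -3.45 to -2.49.

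The 2 tested alpha crystallins had differences of opposite sign. The lens chaperone cryaa had levels of 2.05, 2.2 and 2.45 in tacrine-neomycin larvae, 2.53, 2.60 and 2.29 in neomycin larvae, and 2.34, 2.83 and 2.88 in control larvae. The groups overlapped, and control array 1 was its lowest control. The difference from control larvae was -0.45 in tacrine-neomycin larvae (SE 0.19, adjusted p = 0.196), turning to 0.43 after normexp with the same scaling, and -0.20 in neomycin larvae (SE 0.19, adjusted p = 0.849). All 4 tested cryaa probes were below 0 in the comparison of tacrine-neomycin with control larvae, between -0.50 and -0.17.

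The second alpha gene, cryabb, encodes an alpha B crystallin that zebrafish also express outside the lens. Its level was -1.99, -1.67 and -1.77 in tacrine-neomycin larvae, -2.82, -2.92 and -5.12 in neomycin larvae, and -2.49, -3.45 and -2.81 in control larvae. All tacrine-neomycin arrays were above all others, and neomycin array 3, the array on which its probe was not well above background, was far below the rest. The difference was 1.81 from neomycin larvae (SE 0.55, a 3.51-fold higher level, adjusted p = 0.125) and 1.11 from control larvae (SE 0.55, a 2.15-fold higher level, adjusted p = 0.272). Without neomycin array 3 the difference from neomycin larvae was 1.06. The difference from control larvae holds no neomycin array and stayed 1.11 by construction. It was called in that fit (adjusted p = 0.0445 in limma), in which the spread is pooled over all groups and no longer holds the outlying array. Of all named genes 3.96% were called in either direction in that fit. With array weights the difference from neomycin larvae was 2.86 (adjusted p = 0.0107), where 11.6% of all named genes were called. After normexp with the same scaling the difference from control larvae was -0.29. The second tested cryabb probe was well above background on 3 tacrine-neomycin, 0 neomycin and 0 control arrays. It passed the filter only through the group where it is high. Its differences of 1.43 from neomycin and 1.18 from control larvae are therefore no separate support.

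Other small heat shock genes, relatives of the alpha crystallins, included 1 called gene of 8 tested in each comparison of tacrine-neomycin larvae. Of all named genes 2.76% were called against neomycin larvae and 5.66% against control larvae. Against neomycin larvae 7 of 8 were above 0, with a median of 0.56, and against control larvae 8 of 8 were, with a median of 0.42 that was -0.25 after normexp with the same scaling. The called gene was hspb9, at 3.90, 4.28 and 4.62 in tacrine-neomycin larvae, 1.07, 0.66 and 1.09 in neomycin larvae, and 1.45, 1.18 and 0.56 in control larvae. It rose by 3.33 on the log2 scale against neomycin larvae (SE 0.27, adjusted p = 0.00113) and by 3.20 against control larvae (SE 0.27, adjusted p = 0.000501). Against control larvae hspb6 differed by 1.83 (adjusted p = 0.120), hspb7 by 0.89 (adjusted p = 0.0586) and hspb1 by 0.68 (adjusted p = 0.0755), none of them called. Differences of hspb2, hspb3, hspb8 and hspb15 lay between 0.0026 and 0.15.

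**Figure D4:**
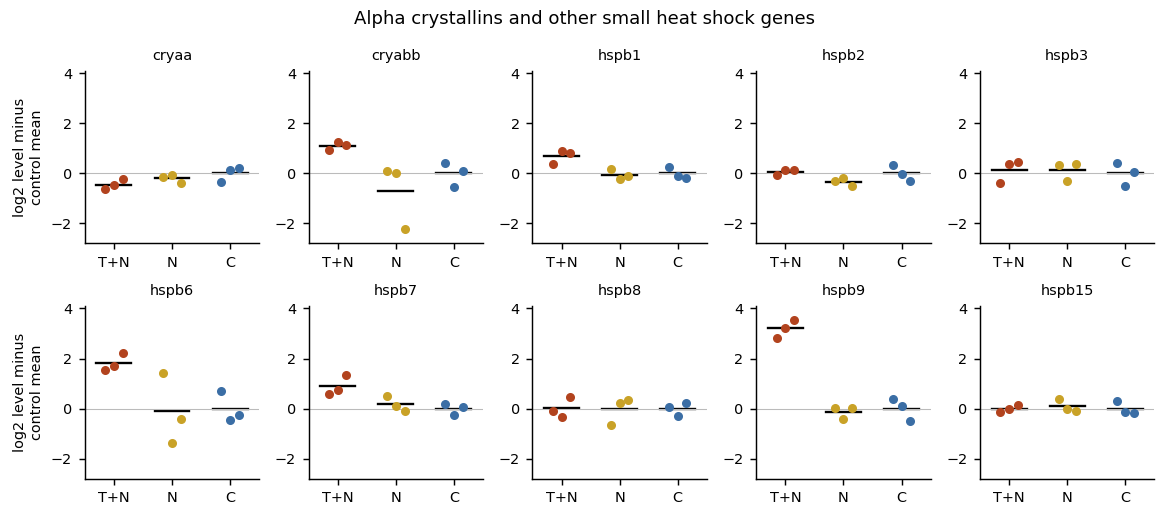
Log2 level minus the control mean for the 2 tested alpha crystallins and 8 other small heat shock genes on every array (points; bars are group means of n = 3) in tacrine-neomycin (T+N), neomycin (N) and control (C) larvae. hspb9 averages 3.20 above the control mean in tacrine-neomycin larvae and cryabb 1.11, while cryaa lies at -0.45 (0.43 after normexp with the same scaling).

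Of 13 tested genes listed as targets of heat shock factor, 4 were called higher in tacrine-neomycin than in control larvae and 9 did not pass. Of all named genes 3.37% were called as higher. The list was written to include the factors hsf1 and hsf2. Its median was 0.47, with 4 of 13 below 0, and 0.78 after normexp with the same scaling. The Hsp70 co-chaperone bag3 rose by 2.51 on the log2 scale (SE 0.27, adjusted p = 0.00147), hsp90aa1.1, the muscle Hsp90, by 1.11 (SE 0.27, adjusted p = 0.0482), hspa4a by 0.95 (SE 0.17, adjusted p = 0.0168) and the mitochondrial chaperonin hspd1 by 0.72 (SE 0.15, adjusted p = 0.031). The call of bag3 held under all 21 alternatives, as did both calls of hspb9. That of hspa4a was lost under 3 of them, which were normexp with the same scaling (adjusted p = 0.122) and leaving out tacrine-neomycin array 1 or 3 (adjusted p = 0.0588 in both). That of hspd1 was lost under 8, among them leaving out control array 1 or 2 or any tacrine-neomycin array (adjusted p between 0.0658 and 0.101). That of hsp90aa1.1 was lost under 15, among them the slide as a block (adjusted p = 0.0573) and leaving out any array but control array 2. In tacrine-neomycin against neomycin larvae bag3 alone of the 13 passed, with 2.88 (SE 0.27, adjusted p = 0.00176), where 1.92% of all named genes were called as higher. The median of the 13 was 0.16 there, with 2 below 0 and the lowest at -0.96.

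Lens genes other than crystallins were compared in the same way. Their medians were -0.15 in tacrine-neomycin against control larvae (28 of 42 below 0, with 0.42 after normexp with the same scaling), -0.10 in tacrine-neomycin against neomycin larvae (30 of 42) and -0.02 in neomycin against control larvae (25 of 42, with 0.37 after normexp). The membrane channel genes mipa and mipb, which fibre cells use for water transport and adhesion, differed by -0.33 and -0.39 between tacrine-neomycin and control larvae, with adjusted p of 0.269 and 0.134. In that comparison 1 of the 42 was called, where 5.66% of all named genes were. The ephrin receptor epha2a rose by 1.66 (SE 0.21, adjusted p = 0.00324). Of 21 alternatives this call was lost under 1, normexp with the same scaling, with a difference of 0.43 (adjusted p = 0.271). Against neomycin larvae 2 of the 42 were called, where 2.76% of all named genes were. The myosin chaperone unc45b rose by 1.11 (SE 0.22, adjusted p = 0.0341) and the signal protein bmp4 fell by 0.78 (SE 0.16, adjusted p = 0.0418). Both calls were lost when slide was fitted as a block (adjusted p = 0.0652 and 0.0649), and when any one of the tacrine-neomycin or neomycin arrays or control array 3 was left out. All 3 genes are also expressed in many tissues outside the lens, as are others of the list. The medians of the list therefore do not describe lens RNA alone.

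Genes of muscle and cornea had differences of the same sign as the crystallins on the same arrays, and their part in the crystallin values was not tested. Of 30 skeletal muscle genes, 25 were below 0 in tacrine-neomycin against control larvae and 29 in neomycin against control larvae, with medians of -0.34 and -0.26 that were both 0.65 after normexp with the same scaling. None of the 30 was called in limma, where 5.66% and 0.159% of all named genes were. An unadjusted p under 0.05 in limma was reached by 8 and 3 of the 30, and by 22% and 8.18% of named genes. Every treated array lay below every control array in 15 and 10 of the 30, and above in 0 and 0. Of all named genes 16.2% and 6.88% lay below in this way. Under quantile normalization the muscle medians were -0.023 and -0.058. Set against each gene's mean, the muscle median was -0.23, -0.16 and -0.01 on tacrine-neomycin arrays, 0.02, -0.26 and 0.04 on neomycin arrays and 0.39, 0.06 and 0.09 on control arrays. As for the crystallins, control array 1 was the highest. Of 22 cornea and epidermis genes 15 were below 0 in tacrine-neomycin against control larvae, with a median of -0.33 (0.61 after normexp with the same scaling). In 8 of the 22 every tacrine-neomycin array lay below every control array and in 3 above, where 16.2% and 13.7% of named genes did. In that comparison 1 of the 22 was called, where 5.66% of all named genes were. The called gene kera, a keratan sulphate proteoglycan of the cornea, fell by 1.64 (SE 0.33, adjusted p = 0.0236). That call was lost under 5 of 21 alternatives: normexp with the same scaling (-1.05, adjusted p = 0.122), and leaving out control array 2 or 3 or tacrine-neomycin array 1 or 3 (adjusted p between 0.0674 and 0.0810).

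Retinal genes were measured as well. The median of 28 photoreceptor genes was -0.077 in tacrine-neomycin against control larvae (18 of 28 below 0) and -0.14 in neomycin against control larvae (19 of 28), and these were 0.65 and 0.52 after normexp with the same scaling. That of 14 genes of retinal glia and pigment epithelium was 0.20 in tacrine-neomycin against control larvae (4 of 14 below 0, 0.65 after normexp) and -0.076 in neomycin against control larvae (9 of 14, 0.41 after normexp). The cone phosphodiesterase pde6c rose by 0.93 against neomycin larvae (SE 0.18, adjusted p = 0.0356; 0.0602 when slide was fitted as a block). That call was also lost when any array but control array 1 or tacrine-neomycin array 3 was left out. In any comparison pde6c was the 1 gene called of these 42, and 2.76% of all named genes were called against neomycin larvae. Whether these lists differ from the crystallins was not tested.

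Crystallin probes were bright, which bears on the scaling. By mean signal, 29 of the 48 lay in the brightest 10% of named genes, a ranking that depends on the probes as well as on the RNA. The other 1104 genes of that top 10% had a median of -0.11 in tacrine-neomycin against control larvae, -0.03 in tacrine-neomycin against neomycin larvae and -0.08 in neomycin against control larvae. After normexp with the same scaling these medians became 0.91, 0.01 and 0.89, so bright genes were higher as a whole in both comparisons with control larvae, and the crystallin medians of 0.47, -0.15 and 0.59 stayed below them. Under quantile normalization, which gives every array the same distribution, the crystallin medians were -0.14, -0.12 and -0.06 beside -0.02, -0.02 and 0.00 for the other bright genes.

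**Figure D5:**
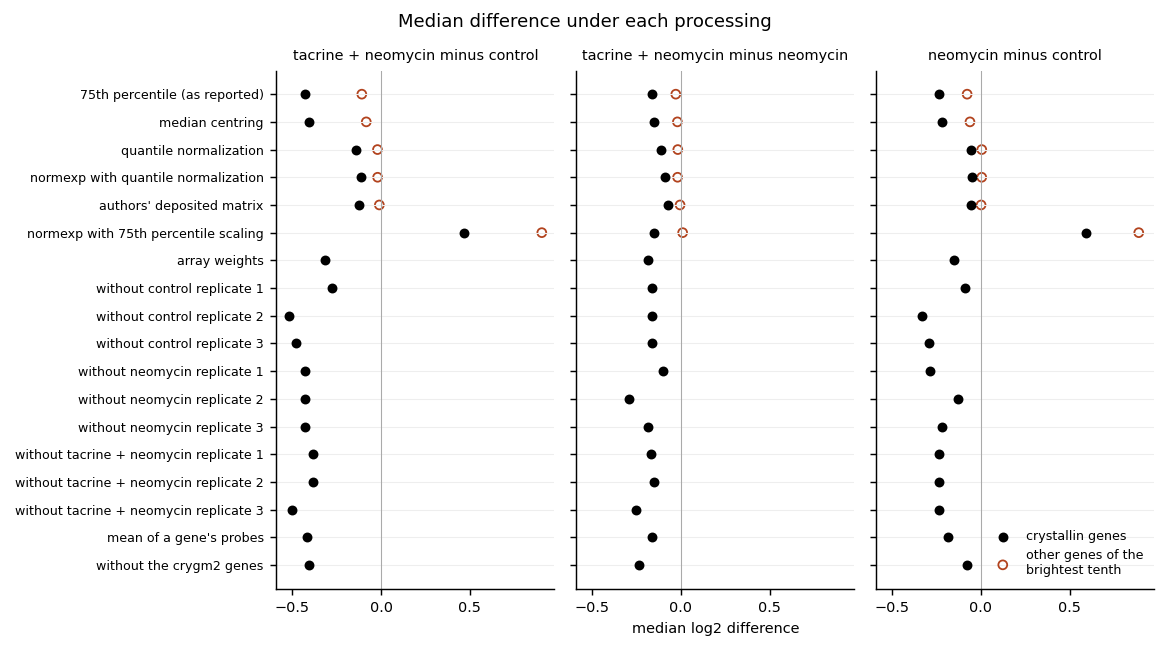
Median log2 difference of the crystallin genes (filled) and of the other genes in the brightest 10% (open) under each processing, for 3 comparisons. Crystallin medians in tacrine-neomycin against control larvae run from -0.52 to -0.11 except for 0.47 after normexp with 75th percentile scaling, where the other bright genes are at 0.91.

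Different probes of a gene mostly gave the same direction. Of 20 crystallin genes with several tested probes, the signs differed in 1 gene, crybb1, in tacrine-neomycin against control larvae. They differed in 4 in tacrine-neomycin against neomycin larvae and in 2 in neomycin against control larvae. Over all 77 tested crystallin probes, 71, 68 and 60 were below 0 in these comparisons, and none was called (32, 8 and 3 had an unadjusted p under 0.05 in limma, where 22.4%, 17.5% and 9.03% of all tested probes did). Of all tested probes 5.92%, 2.67% and 0.117% were called.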

How the data were processed

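Each of 9 arrays measured RNA of 1 sample of whole larvae. The scanner output deposited by the authors, 1 table per array, holds linear intensity values per the file headers. Feature Extraction had already removed background from the processed signal; median signals of spot and background stand beside it. The quality columns deposited with them hold 0 or 1, another unit, for spots above background, saturation and outliers. The headers name version 10.1.1.1 and the submitters' processing notes 8.0. A second table deposited by the authors gives log2 values for 25265 probes, with column medians of 7.11 to 7.12. Each column correlated best with its own array (r between 0.981 and 0.986). Its method is not given in the sources used here, so its scale beyond log2 and any centring stay unknown.

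Repeated spots of a probe were averaged as log2 values, from which each array's 75th percentile over non-control probes was subtracted. No crystallin probe was saturated. Of 43603 probes, 25173 had 1 gene symbol through the RefSeq accession and 18430 had none. The 3 comparisons were fitted in 1 model of 9 arrays with limma 3.58.1 (R 4.3.3; two-sided moderated tests from lmFit with eBayes, 6 residual and 3.12 prior degrees of freedom), which was tested on simulated data. Adjusted p values are from this model, over all 31671 tested probes, except where another setting is named, which was adjusted within its own fit. Genes named are, in each class, the member with the brightest probe and the tested member with the smallest p in each comparison, with every called gene of 7 marker lists. Further genes (crygm1, crygm4, crygm2d21, crygm2d6, crygm2c, crygs4, mipa, mipb and the uncalled small heat shock genes) were named after their values were seen. Members, lists and tests were chosen with earlier results of these data known. No 2 arrays held identical values.

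Same-numbered samples shared a slide. Their deviations from the group means correlated at 0.26, 0.23 and 0.02 in neomycin and control larvae, at 0.11, 0.19 and -0.08 in tacrine-neomycin and neomycin larvae, and at 0.12, 0.19 and 0.10 in tacrine-neomycin and control larvae. Samples with different numbers correlated between -0.30 and 0.13. No pairing is stated for the samples, so the model did not pair them, and an effect of the slide was not tested. The slide as a block and within-slide values are alternatives. Others were the normalization, the filter on dim probes, array weights, the variance model, the samples fitted, the mean of a gene's probes, and leaving out each array. Normexp (offset 50) was run on the deposited median signals, since no mean signal column was used. No chromosome positions are given, because the array design and the RefSeq table use different genome builds, and no sequences are shown.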

Additional observations from a re-analysis of the deposited data

How the results depend on the processing

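Of 135 recomputed counts and medians over the crystallin genes, 121 kept their direction and stayed within the limits set (a count within 1.5 times, a median within 1 SD between arrays). Some of these medians could not change: those with the slide block, the trended robust variance, only the compared groups, or without an array of the third group. The limit was also wide. In neomycin against control larvae 1 SD was 0.24, beside a median of -0.23, so -0.056 under quantile normalization stayed within it. In tacrine-neomycin against control larvae the median of -0.43 was -0.14 under quantile normalization, -0.11 with normexp and quantile normalization, -0.12 in the authors' deposited matrix (45 genes) and 0.47 with normexp and 75th percentile scaling. In neomycin against control larvae the last setting gave 0.59 against -0.23. Beside the shift of all bright genes under that setting, the cause was not tested.

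Crystallin genes called in tacrine-neomycin against control larvae numbered 1 under quantile normalization (crygm2f, adjusted p = 0.046), 1 with normexp and quantile normalization (crygm2c, 0.0192), 3 with only probes above background on all 9 arrays (crygm2d14, crygm2f and crygm2d6) and 3 with a trended robust variance (the same 3 genes). They numbered 2 with the replicate block by slide (crygm2c and crygm2d6), 2 with array weights (crygm2d6 and crygs3) and 1 with the mean of a gene's probes (crygm2d14, 0.0488). These shares of the crystallin genes lay below the share of all named genes called in either direction under each of these 7 settings: 2.08% against 5.79%, 2.08% against 3.97%, 6.67% against 7.73%, 6.25% against 7.44%, 4.17% against 6.9%, 4.17% against 9.34% and 2.08% against 6.21%. All of these crystallin calls were lower, and shares of named genes called as lower are not given for these settings. As reported, 2.29% of named genes were called as lower and 5.66% in either direction, so the shares do not compare like with like. Leaving out 1 array gave 0 to 1 called, with medians from -0.52 to -0.28, where 2.3% to 5.39% of named genes were called. The 1 was cryabb as higher, without neomycin array 3, 2.08% against 3.96% of named genes in either direction. In tacrine-neomycin against neomycin larvae 1 was called with array weights, cryabb as higher, 2.08% against 11.6% of named genes in either direction. When an array was left out 0 were called, where 0.918% to 3.12% of named genes were, and the medians ran from -0.30 to -0.10. In neomycin against control larvae 0 were called under any alternative, where 0% to 0.653% of named genes were, so this 0 says little about the crystallins. The medians ran from -0.33 to -0.092 when an array was left out. With the replicate block 0 crystallin genes were called in these last 2 comparisons, where 2.74% and 0.106% of named genes were. In that fit 5 and 8 crystallin genes had an unadjusted p under 0.05 in limma. Of 11326 named genes, 2419 and 1230 did. In tacrine-neomycin against control larvae 27 of 48 crystallin genes and 3080 of 11326 named genes did so in the block fit. Among marker genes the block ended the calls of hsp90aa1.1, unc45b, bmp4 and pde6c. Over 21 alternatives the calls of hspb9 and bag3 held in all, and lost calls numbered 1 for epha2a, 3 for hspa4a, 5 for kera, 8 for hspd1, 11 for unc45b and pde6c, 13 for bmp4 and 15 for hsp90aa1.1.

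Differences of single named genes changed sign in 55 of 870 recomputations, none with an adjusted p under 0.05. Of the 42 named results, 26 changed sign at least once. Many of the 870 could not change sign, since settings such as the slide block or the filters keep the same group means. With normexp and 75th percentile scaling, neomycin against control larvae gave 0.59 for cryaa, 0.61 for cryba4, 0.68 for cryba1l1, 0.59 for crybb1, -0.73 for crybb2, 0.90 for crybgx, 0.42 for crygm2d3, 0.44 for crygm2d14, 0.60 for crygm2f and 0.94 for crygn2. The same setting gave, in tacrine-neomycin against control larvae, 0.43 for cryaa, -0.29 for cryabb, 0.56 for cryba4, 0.60 for cryba1l1, 0.57 for cryba2b, 0.61 for crybb1, 0.60 for crybgx, 0.35 for crygm2d3, 0.30 for crygm2d14 and 0.77 for crygn2, and 0.013 for crybb1 against neomycin larvae. Under quantile normalization, normexp with quantile normalization and the authors' matrix, crybgx gave 0.072, 0.11 and 0.072 and crygn2 0.15, 0.18 and 0.16 (neomycin against control larvae). Under the same 3 settings cryba4 gave 0.049, 0.044 and 0.055, crybb1 0.039, 0.062 and 0.040 and crygm2d3 0.032, 0.052 and 0.090 (tacrine-neomycin against neomycin larvae), and crygn2 gave 0.098, 0.066 and 0.099 (tacrine-neomycin against control larvae). Array weights gave 0.024 for crybgx, 0.090 for crygn2 and -0.039 for crygn1 (neomycin against control larvae) and 0.00033 for crybb1 (tacrine-neomycin against neomycin larvae). Leaving out 1 array gave, in neomycin against control larvae, -1.11 to 0.044 for cryabb, -0.12 to 0.27 for cryba2b, -0.18 to 0.049 for crybgx, -0.43 to 0.054 for crygm2f, -0.16 to 0.16 for crygn2 and -0.046 to 0.31 for crygn1. It gave -0.12 to 0.0073 for crybb1 in tacrine-neomycin against neomycin larvae and -0.32 to 0.0049 for crygn2 in tacrine-neomycin against control larvae.

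The median over all 77 probes was -0.41, -0.16 and -0.19 in tacrine-neomycin against control, tacrine-neomycin against neomycin and neomycin against control larvae, and without the crygm2 genes it was -0.41, -0.24 and -0.077; both alternatives were chosen after seeing the data. Restricting the genes to probes that match 1 gene was not run by sequence. The 3 arrays per group and signals near background limit what can be said of crybb2 and crygm2d21.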
